A study of Mus musculus with 24 samples.

Results

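The response of the FoxO6 mutant hippocampus to object learning was read from 12 of the series' 24 arrays: the 6 titled as FoxO6 -/- after learning and the 6 titled as FoxO6 -/- before learning, or basal. All 12 came from FoxO6 null males of C57BL/6J-129sv mixed background, 8 to 9 weeks old, and total RNA of the dissected hippocampus was hybridised to Affymetrix Mouse Gene 1.0 ST arrays. Basal mutants had been housed singly for at least 3 days. Learning mutants had been handled daily, met the empty arena for 10 min on the day before the task (24 h), were moved to the procedure room and left there for 60 min, spent 10 min with a pair of identical, unfamiliar objects, and were killed 60 min later. Handling, transfer and exposure to the arena differ between the groups along with the objects. Single housing is stated for basal mutants only, so housing may differ too. The shares of all these in any difference cannot be told apart. The other 12 arrays are wild-type (WT) mice in the same pair of states, 6 each, and serve as the genotype comparison. The mutant arrays are called biological replicates in the labels, which give no litter, scan or hybridisation batch. Every signal is a log2 value from RMA, and a gene was called where its adjusted p was under 0.05 over all 19938 genes.

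When a mouse explores something unfamiliar, firing neurons let in calcium, kinases reach the nucleus, and transcription factors already present there, among them CREB and SRF, switch on immediate early genes within minutes. Many of these encode transcription factors themselves (Fos, the Egr and Nr4a families), and others act at the synapse, such as Arc and Bdnf. FoxO proteins are forkhead transcription factors. Insulin and growth factor signalling moves FoxO1, FoxO3 and FoxO4 out of the nucleus through the kinase Akt. FoxO6 is the member known for its expression in the brain, the hippocampus included.

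The probe set for Foxo6 (chromosome 4, 120267078 to 120287261 in GRCm38.p6) ran from 6.18 to 6.59 in basal mutants, with a median of 6.26, and from 5.98 to 6.38 in learning mutants, with a median of 6.28. Its mean was lower in mutants than in WT by −0.73 at basal and by −0.63 after learning (exact two-sided permutation test, p = 0.0021645 each, the smallest that 6 against 6 arrays allow). Whether a Foxo6 signal remained in the mutants cannot be told, since no background level was set. No source used here says whether the probe set lies in the deleted part. Within the mutant, Foxo6 did not pass the test between states (difference −0.06, adjusted p = 0.65).

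Learning and basal mutants separated widely. Of 19938 genes, 8231 were called (41.3%), 4508 of them higher after learning (22.6%) and 3723 lower (18.7%). Most differences were small: the median size among called genes was 0.29, 606 genes were called higher by at least 0.5 (3.04%) and 497 lower by at least 0.5 (2.49%), 1103 in all (5.53%), while 19 were called higher and 6 lower by at least 1. All 6 learning arrays lay above all 6 basal arrays for 2183 genes (10.9%) and below them for 2352 (11.8%). The first principal component of the 12 arrays held 47.4% of the variance, with the lowest learning array at 12.96 and the highest basal array at −14.84. The median difference over all genes was 0.03, and the list medians below are to be read beside it. A list with called shares near these percentages is no different from genes at large. Brighter genes were called more often. Of the 9969 genes at or above the median signal, 3260 were called higher (32.7%) and 3101 lower. Of the 9969 below it, 1248 were called higher (12.5%) and 622 lower. Many lists hold mainly brighter genes, so their shares are to be read beside those of brighter genes too.

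Several properties of the genes moved with the differences, and their part in the results was not tested. Of 10 equal classes of GC in the bases around the start, the lowest had a median difference of 0.10 and the highest of −0.04. In the lowest, 1.85% of the genes were called lower against 33.3% in the highest, while the shares called higher were 23.7% and 22.9%. Only 78.1% of the genes had a promoter in the reference, and the part of GC in the results of any list was not tested. Short and dim genes also lay higher, with medians of 0.08 in the shortest of 10 classes and 0.11 in the dimmest. In the shortest class 3.83% of the genes were called lower, against 27.9% in the longest. The 1027 olfactory receptor genes, whose median signal was 4.45, had 208 members called higher and 1 called lower. The share called higher, 20.3%, was near the 22.7% of all other genes. Their median difference was 0.11 against 0.02 for all other genes, so a small positive difference appears in genes that hippocampal cells are not known for. The WT medians took a similar course over each property.

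**Figure D1:**
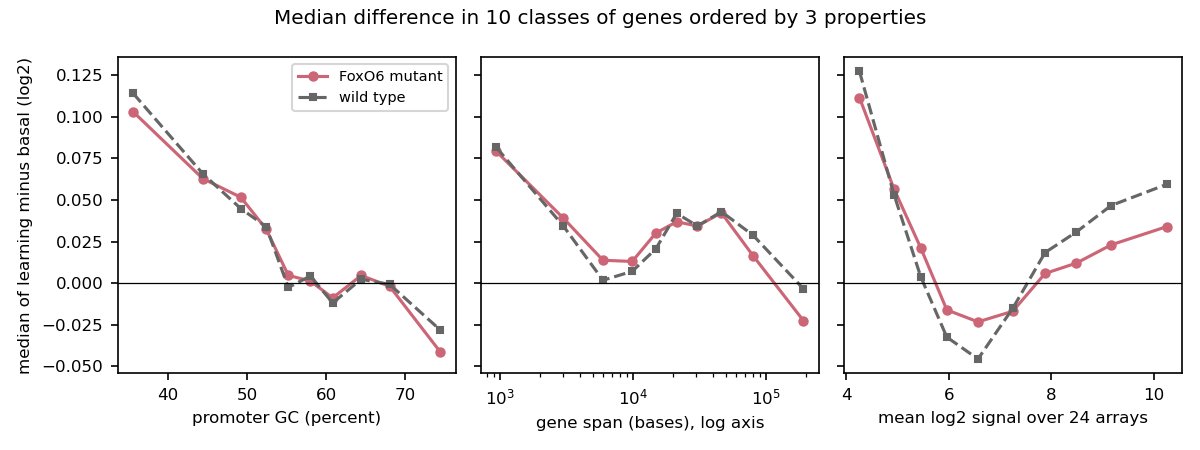
Median difference between learning and basal arrays (log2, vertical axis) in 10 classes of genes ordered by promoter GC in percent, by gene span in bases (log axis) and by mean log2 signal, for FoxO6 mutant (circles) and wild-type mice (squares). In the mutant the median runs from 0.10 in the lowest class of promoter GC to −0.04 in the highest, and the dimmest class stands at 0.11.

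Markers of hippocampal neurons were read in every array. Averaged over each list, those of dentate granule cells lay at 8.03 to 8.19 in basal and 7.98 to 8.08 in learning mutants, those of CA1 pyramidal cells at 8.85 to 8.96 and 8.78 to 9.01, and those of CA2 and CA3 at 8.65 to 8.79 and 8.63 to 8.77. In bulk tissue, fewer cells of a type and less RNA per cell cannot be told apart. Markers of neocortical layer neurons averaged 8.40 to 8.58 at basal and 8.62 to 8.73 after learning, without overlap, with 5 of 13 called higher and 3 lower. That list shares Nr4a2 with the rapid regulators below and Pcp4 with the CA2 and CA3 markers, and both were called higher. They are among the 5 called higher, and their part in the rise of the average was not tested. Markers of endothelial and mural cells averaged 7.86 to 7.97 and 7.67 to 7.78, also without overlap, with 2 of 18 higher and 8 lower. Among the 8 lower were Cldn5, a tight junction protein of the blood-brain barrier (fell by 0.65, adjusted p = 1.6e-09), and Tie1, an endothelial receptor kinase (fell by 0.61, adjusted p = 6e-08). The 2 higher were Rgs5 (rose by 0.42, adjusted p = 3.7e-08) and Slc2a1 (rose by 0.28, adjusted p = 8.7e-05), which were not part of the checks of reported genes below. The part of these cell types in the differences below was not tested.

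Of 28 genes measured that code for rapid transcription regulators, 15 were called higher (53.6%) and 3 lower (10.7%), with a median of 0.20 against 0.03 for all genes. Fos, a subunit of the AP-1 transcription factor and the standard marker of recently active neurons, ran from 6.17 to 6.63 (median 6.47) in basal mutants and from 8.05 to 8.36 (median 8.12) in learning mutants. The lowest learning array stood far above the highest basal one, and Fos had the largest difference of all genes, 1.73 (SE 0.10), which is 3.31-fold (adjusted p = 6.6e-14). Egr2, a zinc finger factor, ran from 6.15 to 6.33 (median 6.25) at basal and from 6.96 to 7.47 (median 7.30) after learning. Its groups did not overlap either, and the rise was 2.04-fold (difference 1.03, SE 0.10, adjusted p = 1.2e-09).

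Nr4a1, an orphan nuclear receptor, went from 9.11 to 9.22 (median 9.17) at basal to 9.82 to 10.08 (median 9.94) after learning. That is a rise of 0.77 (SE 0.09, 1.71-fold, adjusted p = 1.2e-08) with no overlap. Egr1, the best known of the Egr factors in memory research, lay at 7.83 to 8.03 (median 7.98) and then at 8.41 to 8.76 (median 8.57), a rise of 0.62 (SE 0.07, adjusted p = 6.7e-09), and its groups were also apart. Nr4a2, the close relative of Nr4a1, rose by 0.42 (SE 0.06, adjusted p = 9.2e-07), and Crem, which codes for CREB-like activators and repressors, by 0.55 (SE 0.08, adjusted p = 1.2e-06).

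Some members of the same families are given here although they were chosen after their values were seen. Fosb rose by 0.63 (adjusted p = 3.4e-08) and Egr4 by 0.49 (adjusted p = 5.8e-07), both with no overlap. Npas4, a factor induced by calcium entry in neurons, rose by 0.58 (SE 0.13, adjusted p = 0.00055), but its arrays overlapped: 6.36 to 7.20 (median 6.56) at basal and 6.91 to 7.45 (median 7.27) after learning. Jun, the usual partner of Fos, rose by 0.19 (adjusted p = 0.0068). Junb at 0.16 (adjusted p = 0.11) and Nr4a3 at 0.03 (adjusted p = 0.62) did not pass the test. The Fos, Egr and Nr4a families were thus uneven, each with larger and smaller differences among its members.

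Srf, Jund and Egr3, which belong to the same list, fell, each with no overlap between groups. Srf, the serum response factor that drives many immediate early genes, lay at 8.43 to 8.62 (median 8.51) at basal and at 8.01 to 8.18 (median 8.12) after learning, and fell by 0.42 (SE 0.05, adjusted p = 2.6e-08). Jund, a Jun family member that is present at rest, fell by 0.39 (SE 0.07, adjusted p = 8.1e-05). Egr3 fell by 0.23 (SE 0.05, adjusted p = 0.00013), the only measured Egr family member called lower.

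**Figure D2:**
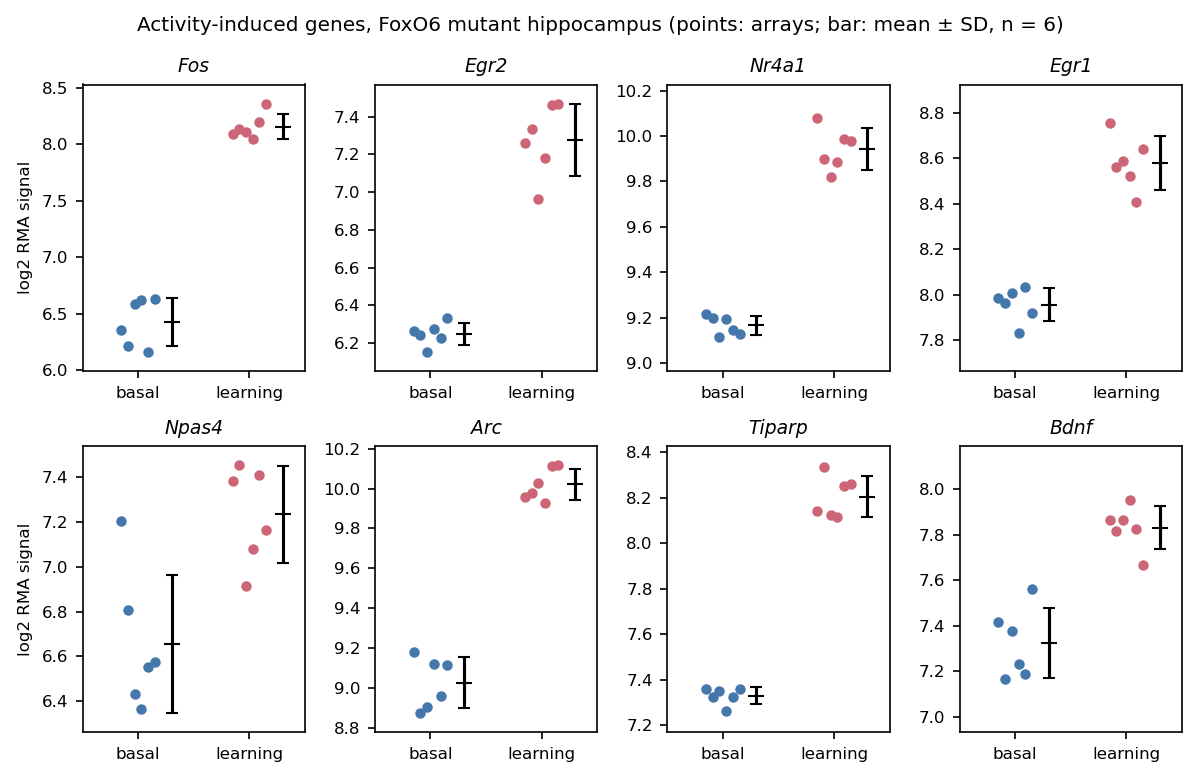
Log2 RMA signal (vertical axis) of 8 activity-induced genes in the 6 basal and 6 learning FoxO6 mutant arrays, with each array as a point and the mean ± SD (n = 6) as a bar. All learning points lie above all basal points in every panel except that of Npas4, where the highest basal array (7.20) exceeds the lowest learning array (6.91).

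Promoter sequences are shown for the 6 rapid regulators and effectors with the largest rise among those in the promoter table, because CREB and SRF act through short motifs close to such starts. Each run is the 250 bases before the start (RefSeq, GRCm38.p6), 5′ to 3′ on the strand of the gene. Capitals mark the core of the CREB binding site, TGACG or its reverse complement CGTCA, and, in Egr2, also the CArG box that SRF binds. The windows lie at chr12:85473640-85473889, plus strand for Fos; chr10:67537619-67537868, plus strand for Egr2; chr3:65528197-65528446, plus strand for Tiparp; chr5:24842362-24842611, minus strand for Rheb; chr15:101266596-101266845, plus strand for Nr4a1; and chr10:80929841-80930090, plus strand for Gadd45b.
Fos: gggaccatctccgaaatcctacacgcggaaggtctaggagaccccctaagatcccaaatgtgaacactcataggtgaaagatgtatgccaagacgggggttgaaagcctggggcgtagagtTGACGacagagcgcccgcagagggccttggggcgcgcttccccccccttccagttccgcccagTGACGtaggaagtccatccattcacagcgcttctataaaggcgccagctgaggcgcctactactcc
Egr2: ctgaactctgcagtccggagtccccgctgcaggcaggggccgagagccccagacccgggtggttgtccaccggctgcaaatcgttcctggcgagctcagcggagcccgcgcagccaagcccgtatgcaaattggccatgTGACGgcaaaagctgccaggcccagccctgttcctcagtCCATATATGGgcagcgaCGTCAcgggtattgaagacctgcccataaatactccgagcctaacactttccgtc
Tiparp: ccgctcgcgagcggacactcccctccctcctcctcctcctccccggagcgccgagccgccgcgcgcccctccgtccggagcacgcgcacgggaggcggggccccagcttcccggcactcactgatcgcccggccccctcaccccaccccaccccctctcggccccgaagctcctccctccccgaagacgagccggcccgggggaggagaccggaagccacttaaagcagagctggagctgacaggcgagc
Rheb: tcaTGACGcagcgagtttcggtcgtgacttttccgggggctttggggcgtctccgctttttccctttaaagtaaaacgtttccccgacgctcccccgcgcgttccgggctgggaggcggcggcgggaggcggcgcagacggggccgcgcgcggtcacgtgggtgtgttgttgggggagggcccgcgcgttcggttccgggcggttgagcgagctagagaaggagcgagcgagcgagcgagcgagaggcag
Nr4a1: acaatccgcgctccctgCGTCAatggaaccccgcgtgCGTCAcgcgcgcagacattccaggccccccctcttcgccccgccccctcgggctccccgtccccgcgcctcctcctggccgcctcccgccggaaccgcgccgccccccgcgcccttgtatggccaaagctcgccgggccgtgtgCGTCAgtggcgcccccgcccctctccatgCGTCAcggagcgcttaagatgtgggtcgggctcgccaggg
Gadd45b: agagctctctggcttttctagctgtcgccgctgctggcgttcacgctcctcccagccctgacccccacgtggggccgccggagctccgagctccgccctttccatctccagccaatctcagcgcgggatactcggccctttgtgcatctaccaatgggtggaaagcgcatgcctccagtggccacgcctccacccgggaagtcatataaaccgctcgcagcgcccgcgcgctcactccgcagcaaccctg
Fos has 2 cores, the nearer of them followed by a TATAAA box, Egr2 has 2 cores beside its CArG box, Nr4a1 has 4 cores and Rheb 1, while Tiparp and Gadd45b have none in this window. Egr2 has 5 starts in the table, and the window with the most motif letters is the one shown. The TGACG core, read on both strands, stood in 11 of 14 windows (78.6%) of the 10 rapid regulators that were called higher and had a window, and in 22 of 30 (73.3%) of all 21 regulators with one, called or not, against 21.4% of the 19115 windows of all measured genes. In the 22 windows of effectors called higher it stood in 10 (45.5%). Other lists varied: the core stood in 10 of 20 windows (50.0%) of heat shock and chaperone genes called higher. It stood in 4 of 20 windows of glucocorticoid-responsive genes called higher and in 7 of 31 (22.6%) of FoxO genes and targets. A share above that of all windows was thus not particular to the activity-induced lists. The CArG box was found in 4 of the 14 regulator windows (28.6%), all of them overlapping windows of Egr2, against 1.27% of all windows. Of the windows of genes called higher by at least 0.5, 31.8% held the TGACG core, and of those called lower by at least 0.5, 24.0%. The FoxO motif GTAAACA stood in 3 of the 31 windows of FoxO genes and known FoxO targets (9.68%) and in 2.67% of all windows. A match to these letters is a description and shows no binding.

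Of 32 measured effectors that neuronal activity induces, 18 were called higher and 4 lower, with a median of 0.19. Arc, which acts in endocytosis of AMPA receptors at active synapses, lay at 8.87 to 9.18 (median 9.04) in basal mutants and at 9.93 to 10.12 (median 10.00) in learning mutants. The groups were far apart, and the rise was 1.99-fold (difference 1.00, SE 0.09, adjusted p = 1.3e-10). Tiparp, a mono-ADP-ribosyltransferase, went from 7.26 to 7.36 (median 7.34) to 8.12 to 8.33 (median 8.20), a rise of 0.88 (SE 0.06, 1.83-fold, adjusted p = 1.8e-12). Rheb, the small GTPase that activates mTOR complex 1, was at 9.49 to 9.78 (median 9.66) and then at 10.31 to 10.56 (median 10.48), a rise of 0.81 (SE 0.05, adjusted p = 1.6e-13). In both the spread of a group was a small part of the distance between groups.

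Bdnf, the neurotrophin that strengthens active synapses, ran from 7.17 to 7.56 (median 7.30) at basal and from 7.67 to 7.95 (median 7.85) after learning. It rose by 0.51 (SE 0.06, adjusted p = 1.3e-07), with no overlap. Gadd45a rose by 0.70 (SE 0.06, adjusted p = 6.3e-11) and Gadd45b by 0.74 (SE 0.08, adjusted p = 6.5e-09); both belong to a family of stress proteins tied to DNA demethylation. Homer1, whose short activity-induced form loosens the postsynaptic scaffold, rose by 0.36 (SE 0.05, adjusted p = 3e-06), and the array signal does not separate its short and long forms. On the other side, Vgf, a secreted neuropeptide precursor, fell by 0.33 (adjusted p = 1.7e-05), Nrn1, an activity-induced surface protein, by 0.24 (adjusted p = 1.1e-06), and Sorcs3, a sorting receptor, by 0.21 (adjusted p = 0.0016). Each of the 3 had all learning arrays below all basal arrays.

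Feedback regulators of MAP kinase signalling were called in both directions. Of 19 MAP kinase phosphatases, Sprouty, Spred and related genes, 7 were called higher and 4 lower, with a median of 0.03 whose sign turned in some alternatives. Among dual-specificity phosphatases that switch off MAP kinases, Dusp14 rose by 0.53 (SE 0.04, adjusted p = 3e-12), Dusp5 by 0.50 (adjusted p = 1.3e-07), Dusp6 by 0.46 (adjusted p = 9.4e-09) and, named after its value was seen, Dusp1 by 0.40 (adjusted p = 2.8e-05). Dusp8 fell by 0.37 (adjusted p = 2.8e-06), and the other Dusp genes of the list, from −0.17 for Dusp16 (adjusted p = 0.064) to 0.03 for Dusp10 (adjusted p = 0.82), did not pass. Errfi1, an inhibitor of the EGF receptor, rose by 0.56 (adjusted p = 4.1e-08). Spry2, a Sprouty protein that restrains receptor signalling to Ras, lay at 9.98 to 10.23 (median 10.18) at basal and at 9.02 to 9.35 (median 9.22) after learning. That made it 1.90-fold lower (difference −0.93, SE 0.06, adjusted p = 2.1e-13), with no overlap. Spred3 fell by 0.57 (adjusted p = 4.7e-08) and Spry1 by 0.27 (adjusted p = 0.00081), whereas Spry3 rose by 0.36 (adjusted p = 0.0014) and Spred1 by 0.33 (adjusted p = 1.4e-06). Dusp10, Dusp16, Spry3 and Spred1 were named after their values were seen.

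CREB itself and its coactivators went different ways. Creb1 rose by 0.32 (adjusted p = 3e-05), whereas Crtc1, the coactivator that carries synaptic activity to CREB, fell by 0.60 (SE 0.05, adjusted p = 5.8e-11) and the acetyltransferase Crebbp by 0.44 (adjusted p = 4.1e-09). Over the 19 genes of CREB, CRTC and SIK, 6 were called higher and 7 lower, and the sign of the median (−0.02) turned in some alternatives. Mef2d, a transcription factor of activity-dependent synapse loss, fell by 0.75 (SE 0.04, adjusted p = 1.4e-14), but a dimmer probe set for it rose by 0.47 (adjusted p = 0.00037), so its probe sets disagree. Hdac5, a deacetylase that binds MEF2, fell by 0.57 (adjusted p = 2.1e-12). For its relative Hdac4 the brighter probe set rose by 0.33 (adjusted p = 6.5e-05) and the dimmer fell by 0.33 (adjusted p = 7.6e-07). Of 9 neurotrophins and their receptors measured, 5 were called lower (55.6%) and 1, Bdnf, higher. Ntrk3, the receptor of NT-3, fell by 0.53 (adjusted p = 5e-09), Ntrk2, the receptor of BDNF, by 0.30 (adjusted p = 8.8e-07), and the sorting receptor Sort1 by 0.26 (adjusted p = 3.9e-08).

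Of 22 measured genes that respond to glucocorticoids, the stress hormones released on handling and novelty, 12 were called higher and 3 lower, with a median of 0.27. Tsc22d3 (GILZ), which mediates much of the anti-inflammatory action of glucocorticoids, lay at 7.21 to 7.37 (median 7.29) in basal mutants and at 7.99 to 8.31 (median 8.16) in learning mutants. It rose by 0.86 (SE 0.06, 1.82-fold, adjusted p = 8.1e-13) with no overlap. Ddit4 (REDD1), an inhibitor of mTOR complex 1, was at 7.58 to 7.97 (median 7.73) and then at 8.50 to 8.68 (median 8.56), a rise of 0.85 (SE 0.06, adjusted p = 3.2e-12). The metal-binding protein gene Mt2 rose by 0.79 (adjusted p = 5e-12) and the kinase gene Sgk1 by 0.73 (adjusted p = 6.9e-10). These 4 genes had no overlap between groups.

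Not every glucocorticoid gene followed. Fkbp5, a chaperone of the receptor, stood at 0.11 (adjusted p = 0.19) and Per1, a clock gene with a glucocorticoid-driven promoter, at 0.04 (adjusted p = 0.67), and neither passed the test. Nr3c1, the glucocorticoid receptor, was at −0.07 (adjusted p = 0.23). The last 3 were chosen after their values were seen. Nr3c2, the mineralocorticoid receptor that hippocampal neurons hold at a high level, fell by 0.35 (SE 0.04, adjusted p = 5.3e-08), and Zbtb16, a zinc finger repressor, fell by 0.35 (adjusted p = 1.5e-06). Among 21 clock genes, 8 were higher (38.1%) and 5 lower (23.8%), against 22.6% and 18.7% of all genes. Of these 21, 20 were brighter genes, and 32.7% of all brighter genes were called higher. Nr1d1 (REV-ERB alpha) fell by 0.79 (SE 0.07, adjusted p = 4.3e-10) while its relative Nr1d2 rose by 0.34 (adjusted p = 4.5e-08), the repressor Ciart by 0.57 (adjusted p = 1.5e-05) and the output factor Dbp by 0.52 (adjusted p = 8.1e-06). No source used here gives the time of day of each dissection.

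Heat shock proteins and chaperones rose in 19 of 34 cases and fell in 2, with a median of 0.22. Dnajb4, an HSP40 co-chaperone, rose by 0.62 (SE 0.07, adjusted p = 3.1e-08), Hspa2 of the HSP70 family by 0.46 (adjusted p = 1.3e-07) and Hsp90aa1, the inducible HSP90, by 0.25 (adjusted p = 3.8e-07). Fkbp4, an HSP90 co-chaperone of steroid receptors, fell by 0.26 (adjusted p = 0.00049), with overlap of the arrays.

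FoxO genes and their reported targets matter here because these mice lack FoxO6. Foxo1 (chromosome 3, 52268337 to 52350109) lay at 8.90 to 9.10 (median 8.99) in basal and at 8.37 to 8.67 (median 8.61) in learning mutants. All learning arrays were below all basal arrays, and Foxo1 fell by 0.42 (SE 0.05, adjusted p = 1.7e-07; exact two-sided permutation test, p = 0.0021645). In WT its difference was −0.24, and the interaction had an unadjusted p of 0.025 and an adjusted p of 0.999994, so a difference between genotypes did not pass. Foxo3 at −0.05 (adjusted p = 0.59) and Foxo4 at −0.13 (adjusted p = 0.095) were not called. The same permutation test, unadjusted, gave p = 0.47 for Foxo3 and p = 0.024 for Foxo4.

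Of the 35 FoxO genes and targets measured, 17 were called higher and 7 lower, with a median of 0.13. Bnip3, a mitophagy receptor, ran from 9.53 to 9.84 (median 9.72) at basal and from 10.51 to 10.75 (median 10.69) after learning, a rise of 0.95 (SE 0.08, 1.93-fold, adjusted p = 2.2e-11) with no overlap. A second probe set of Bnip3 rose by 0.53 (adjusted p = 2.1e-09). Sesn1, a stress-induced inhibitor of mTOR complex 1, rose by 0.58 (adjusted p = 1.2e-09) and Cdkn2d, a cyclin-dependent kinase inhibitor, by 0.50 (adjusted p = 3.2e-10). Targets that fell included Cited2, a transcriptional coregulator (by 0.46, adjusted p = 7e-09), and Fbxo32 (atrogin-1), a ubiquitin ligase subunit (by 0.44, adjusted p = 3.5e-06). Many of these targets have other regulators, and Gadd45a stands in this list and among the effectors.

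Genes of insulin, PI3K and mTOR signalling were called lower in 18 of 38 cases and higher in 11, with a median of −0.10. Gsk3a, a kinase that Akt inhibits, lay at 10.22 to 10.29 (median 10.24) and then at 9.49 to 9.65 (median 9.61), a fall of 0.65 (SE 0.05, adjusted p = 3.5e-12). The mTOR complex 1 scaffold Rptor fell by 0.63 (SE 0.04, adjusted p = 7.7e-13), Mtor itself by 0.36 (adjusted p = 1.3e-08), and the PI3K regulatory subunit Pik3r2 by 0.58 (adjusted p = 1.3e-11). The autophagy kinase Ulk1, which stands in the list of FoxO targets and not in this one, fell by 0.38 (adjusted p = 1.9e-07). Rictor, the scaffold of mTOR complex 2, rose by 0.33 (adjusted p = 2.8e-07), as did Rheb, described above. The scaffolds of the 2 mTOR complexes thus moved in opposite directions.

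The genes with the largest falls belong to several functions. Dtx3, a Deltex family ubiquitin ligase (chromosome 10, 127190373 to 127196498), lay at 9.81 to 10.09 (median 9.90) in basal mutants and at 8.48 to 8.72 (median 8.59) in learning mutants, which is 2.48-fold lower (difference −1.31, SE 0.06, adjusted p = 8.5e-17). Pltp, the phospholipid transfer protein, was at 10.19 to 10.48 (median 10.22) and then at 9.00 to 9.09 (median 9.03), 2.35-fold lower (difference −1.23, SE 0.04, adjusted p = 1.5e-18). Selenow, the small selenoprotein W, was at 11.90 to 12.04 and then at 10.85 to 10.99 (median 10.93), 2.07-fold lower (difference −1.05, SE 0.04, adjusted p = 1.4e-18). For all 3 the distance between groups was larger than the range within either group. The bases before the starts of Pltp (chr2:164857709-164857958, minus strand), Selenow (chr7:15922372-15922621, minus strand) and Tmem88b (chr4:155785875-155786124, minus strand) are shown for 3 of the genes with large falls; none of the 3 holds the TGACG core or a CArG box, so nothing is in capitals.
Pltp: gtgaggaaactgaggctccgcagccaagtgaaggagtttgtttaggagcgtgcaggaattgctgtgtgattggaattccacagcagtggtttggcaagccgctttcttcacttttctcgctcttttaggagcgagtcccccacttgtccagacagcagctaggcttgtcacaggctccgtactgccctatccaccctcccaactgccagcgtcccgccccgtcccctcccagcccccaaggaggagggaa
Selenow: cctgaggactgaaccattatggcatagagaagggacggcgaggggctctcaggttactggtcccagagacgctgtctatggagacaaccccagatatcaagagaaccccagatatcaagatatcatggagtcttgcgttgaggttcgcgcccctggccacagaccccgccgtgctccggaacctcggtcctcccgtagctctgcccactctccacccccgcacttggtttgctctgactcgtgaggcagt
Tmem88b: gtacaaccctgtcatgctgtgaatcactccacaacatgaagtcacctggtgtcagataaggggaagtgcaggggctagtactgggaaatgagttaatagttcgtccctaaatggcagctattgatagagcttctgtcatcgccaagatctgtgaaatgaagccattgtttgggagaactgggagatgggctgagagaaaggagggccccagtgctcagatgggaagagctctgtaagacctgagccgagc
Tmem88b, a membrane protein gene, fell by 1.02 (SE 0.09, adjusted p = 5e-11) and Agpat1, an acyltransferase of phosphatidic acid synthesis, by 1.01 (SE 0.05, adjusted p = 5e-16). Among the smallest p-values were also Aplp1, an amyloid precursor-like protein of neurons (fell by 0.87, adjusted p = 1.5e-18), Tmbim6, the Bax inhibitor 1 of the endoplasmic reticulum (by 0.91, adjusted p = 1.5e-15), Fkbp8 (by 0.74, adjusted p = 1.9e-17) and Ppp2r1a, the scaffold subunit of protein phosphatase 2A (by 0.67, adjusted p = 1.9e-17). None of these had overlapping groups.

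**Figure D3:**
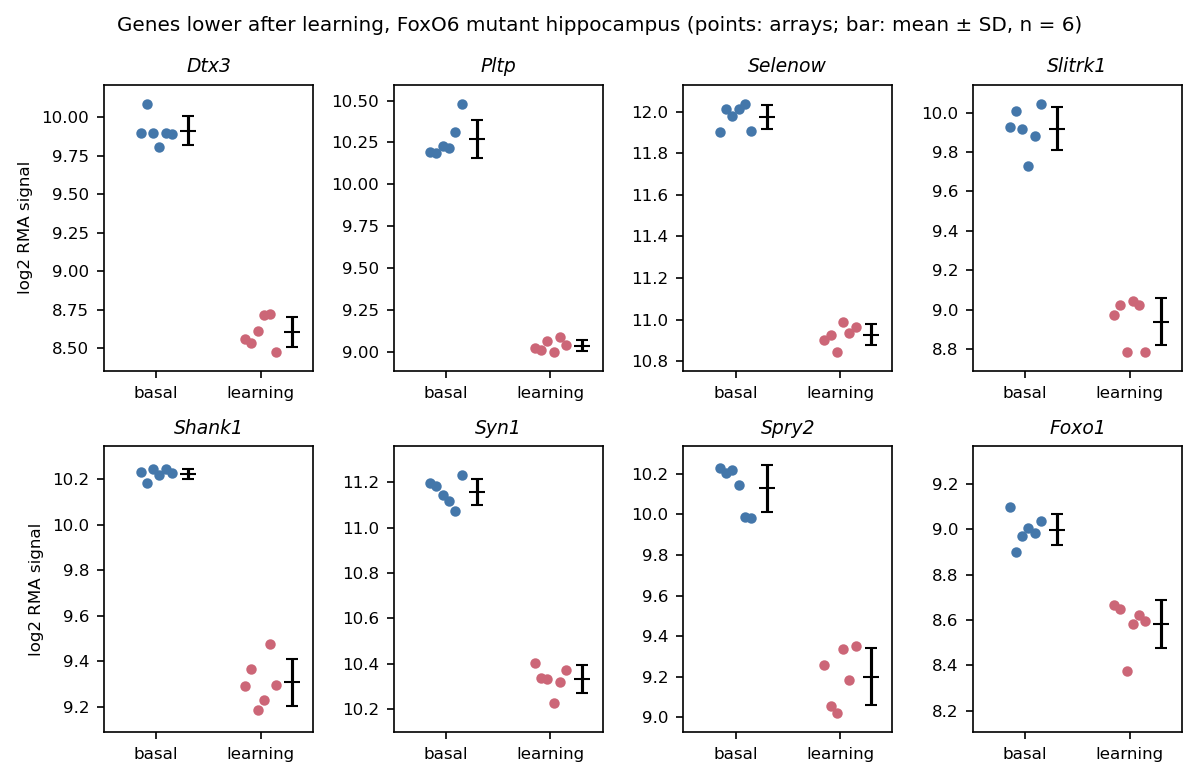
Log2 RMA signal (vertical axis) of 8 genes that were lower after learning, in the 6 basal and 6 learning FoxO6 mutant arrays, with each array as a point and the mean ± SD (n = 6) as a bar. In every panel all learning points lie below all basal points; Pltp goes from a median of 10.22 to 9.03.

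Olfactory receptors were skipped in the ranking of rises; Olfr767 had the second largest difference, 1.57 (adjusted p = 0.00055), with overlapping groups. Sdhaf4, an assembly factor of succinate dehydrogenase (chromosome 1, 23995939 to 24005640), went from 6.20 to 6.56 (median 6.45) to 7.62 to 8.00 (median 7.78), a 2.61-fold rise (difference 1.38, SE 0.08, adjusted p = 4.6e-14). A second, dimmer probe set of Sdhaf4 stood at −0.07 (adjusted p = 0.67). Imp3, a protein of ribosomal RNA processing, rose by 1.31 (SE 0.09, adjusted p = 6.4e-13), Trim13, a ubiquitin ligase of the endoplasmic reticulum, by 1.31 (SE 0.08, adjusted p = 6.7e-14) and Polr3e, a subunit of RNA polymerase III, by 1.26 (SE 0.10, adjusted p = 1.2e-11). A second probe set of Polr3e gave 0.27 (adjusted p = 3.2e-05), and the mean of its probe sets 0.77.

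Hint1, a nucleotide-binding protein, lay at 9.05 to 9.28 (median 9.23) and then at 10.26 to 10.42 (median 10.34), a rise of 1.14 (SE 0.05, adjusted p = 1.6e-16). Mpc1, a subunit of the mitochondrial pyruvate carrier, rose by 1.13 (SE 0.06, adjusted p = 1.5e-15), Lsm7, a component of the U6 snRNA particle, by 1.02 (SE 0.05, adjusted p = 1.1e-16), Erh by 1.07 (adjusted p = 9.7e-14) and the brain-expressed X-linked genes Bex1 by 1.16 (adjusted p = 1.9e-13) and Bex4 by 1.10 (adjusted p = 1.3e-08). Further probe sets of Lsm7 and of Erh gave 0.94 for the former and 1.03 and 1.01 for the latter.

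Genes of synapses and of axon guidance were called lower more often than higher. Of 37 genes of postsynaptic scaffolds and synaptic adhesion, 25 were called lower (67.6%) and 7 higher, with a median of −0.25. Slitrk1, an adhesion protein of neurons, lay at 9.73 to 10.04 (median 9.92) in basal mutants and at 8.79 to 9.05 (median 9.00) in learning mutants, 1.97-fold lower (difference −0.98, SE 0.05, adjusted p = 2.3e-15). Shank1, a master scaffold of the postsynaptic density, was at 10.18 to 10.25 (median 10.23) and then at 9.19 to 9.48 (median 9.29), 1.89-fold lower (difference −0.92, SE 0.06, adjusted p = 3.9e-13). Its relative Shank2 fell by 0.79 (adjusted p = 4.1e-13) by its brightest probe set, and the 2 dimmer probe sets stood at −0.11 (adjusted p = 0.39) and −0.24 (adjusted p = 0.053). The presynaptic adhesion gene Nrxn2 fell by 0.60 (adjusted p = 1.9e-12).

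Within the same list, Lrrtm3 (0.46, adjusted p = 1.3e-06), Slitrk4 (0.38, adjusted p = 9.2e-10) and Lrrtm2 (0.36, adjusted p = 3.5e-09) rose, all leucine-rich repeat adhesion proteins like Slitrk1. Genes of glutamate receptors and their auxiliary subunits were lower in 19 of 34 cases and higher in 2, with a median of −0.21. The falls were led by auxiliary proteins of AMPA receptors: Cnih2 lay at 11.51 to 11.57 (median 11.55) and then at 10.65 to 10.82 (median 10.73), a fall of 0.81 (SE 0.03, adjusted p = 2.8e-17), and Cacng8, a TARP, fell by 0.81 (SE 0.04, adjusted p = 1.7e-15). The kainate receptor subunit Grik5 fell by 0.72 (adjusted p = 5.2e-15), while the AMPA receptor subunit Gria3 rose by 0.16 (adjusted p = 0.0016).

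Presynaptic genes gave 22 lower and 3 higher of 40, with a median of −0.17. Syn1, which tethers synaptic vesicles, was at 11.07 to 11.23 (median 11.16) and then at 10.23 to 10.41 (median 10.34), 1.77-fold lower (difference −0.82, SE 0.03, adjusted p = 5e-17). The vesicle proteins Sv2a and Syp fell by 0.58 (adjusted p = 2.1e-12) and by 0.42 (adjusted p = 3.8e-13). Syt4, a synaptotagmin that activity induces, rose by 0.48 (adjusted p = 3.3e-11) and the SNARE protein Snap25 by 0.17 (adjusted p = 0.00012). Of 25 genes of inhibitory GABA and glycine receptors 9 were called higher and 3 lower, with a median of 0.11. Gabrg1 rose by 0.67 (adjusted p = 8.3e-07) and Gabra3 by 0.38 (adjusted p = 5.6e-06), both subunits of GABA-A receptors, and Gabbr1, a GABA-B receptor subunit, fell by 0.38 (adjusted p = 1.1e-12).

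Ion channels were lower more often than higher, 29 against 10 of 87 for potassium channels and 14 against 5 of 31 for sodium and calcium channels. Kcnab2, an auxiliary subunit of Kv1 channels, fell by 0.72 (adjusted p = 5.7e-13) and Kcna1, a Kv1 pore subunit, by 0.57 (adjusted p = 1e-13), while Kcnn2, a calcium-activated potassium channel, rose by 0.33 (adjusted p = 0.0002). Cacna1a, the pore of P/Q-type calcium channels, lay at 9.35 to 9.48 (median 9.40) and then at 8.71 to 8.77 (median 8.74), a fall of 0.67 (SE 0.04, adjusted p = 1.6e-13). Hcn2, a pacemaker channel, also fell by 0.67 (adjusted p = 5.4e-12).

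Semaphorins, plexins and neuropilins, ligands and receptors of axon guidance that adult neurons also use at synapses, had 22 of 31 members called lower (71.0%) and 5 higher. Their median of −0.35 was the lowest of the 34 lists. Plxnb1, a receptor of class 4 semaphorins, lay at 8.68 to 8.82 (median 8.79) and then at 7.97 to 8.19 (median 8.04), a fall of 0.71 (SE 0.05, adjusted p = 3.7e-13), and the ligand Sema6b fell by 0.53 (adjusted p = 2.9e-11). Ephrins, Slits, Robos and netrins had 20 of 39 lower and 3 higher, among them the netrin receptor Unc5a (fell by 0.64, adjusted p = 4e-12). In Wnt, Notch and Hedgehog signalling 25 of 68 were lower and 5 higher, with Notch1 falling by 0.54 (adjusted p = 2.6e-09). Cadherins and protocadherins had 19 of 59 called higher (32.2%) and 11 lower (18.6%), against 22.6% and 18.7% of all genes. Celsr2, an atypical cadherin of planar cell polarity, fell by 0.64 (adjusted p = 2.5e-11).

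Mitochondrial genes were called higher more often than lower. Of 77 mitochondrial ribosomal proteins, 49 were called higher (63.6%) and 3 lower, with a median of 0.26. Mrpl44 lay at 7.63 to 7.84 (median 7.78) in basal and at 8.67 to 8.86 (median 8.75) in learning mutants, a rise of 0.99 (SE 0.06, adjusted p = 9.9e-14), and Mrpl41 rose by 0.71 (adjusted p = 6.6e-13). Mrpl20 had the largest difference of the list, 1.29 (SE 0.26, adjusted p = 0.00011), yet it was the least even: it spread from 6.46 to 8.40 at basal and from 8.40 to 9.25 after learning, and its groups overlapped. Of 75 genes of the respiratory chain, 52 were called higher (69.3%) and 4 lower, with a median of 0.27. Examples are Cox6c of complex IV (0.77, adjusted p = 3.1e-11), the ATP synthase ring subunit Atp5g3 (0.76, adjusted p = 5.9e-14) and Uqcrc2 of complex III (0.54, adjusted p = 3.1e-15). Sdhc, a membrane subunit of complex II, fell by 0.51 (adjusted p = 7.1e-06) while the complex II assembly factor Sdhaf4 rose.

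Proteasome genes were higher in 24 of 39 cases and lower in 4, with a median of 0.18; Psmd14, the deubiquitinase of its lid, rose by 0.81 (adjusted p = 6.7e-15) and the core subunit Psmb2 by 0.76 (adjusted p = 2.9e-15). Among 55 cytosolic ribosomal proteins 28 were higher and 10 lower, with Rps21 up by 0.87 (adjusted p = 2e-11), Rpl38 up by 0.67 (adjusted p = 2e-12) and Rps14 down, having fallen by 0.66 (adjusted p = 5.1e-08). A second probe set of Rps14 stood at −0.21 (adjusted p = 0.0028), and the mean of its probe sets at −0.44. Ribosomal protein genes have many processed pseudogenes, so a probe set can read more than 1 copy. Translation factors divided, with 23 of 61 higher and 17 lower: Eif3m rose by 0.79 (adjusted p = 4.9e-13) and Eef1a1, the main elongation factor, by 0.73 (adjusted p = 2.1e-11), whereas Eif5a fell by 0.67 (adjusted p = 2.9e-12). A second probe set of Eif5a stood at −0.36 (adjusted p = 9.1e-05).

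Splicing regulators divided too, with 24 of 53 higher and 17 lower. The SR-like proteins Tra2a and Tra2b rose by 0.94 (adjusted p = 5e-09) and by 0.73 (adjusted p = 1.3e-12), as did Clk1, a kinase of SR proteins, by 0.85 (adjusted p = 1.1e-07), while the neuronal regulator Celf3 fell by 0.72 (adjusted p = 7e-13). The 2 other probe sets of Tra2a, at −0.22 and 0.03, and the other one of Tra2b, at 0.31 (adjusted p = 0.093), did not pass the test. Enzymes that modify histones and DNA were lower in 30 of 71 cases and higher in 10, among them the methyltransferases Setd1a (fell by 0.62, adjusted p = 4.3e-11) and Ehmt2 (fell by 0.54, adjusted p = 5.4e-12).

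Neuropeptides rose in 14 of 31 cases and fell in 3, with a median of 0.14. Vip, the peptide of a class of interneurons, ran from 6.36 to 6.81 (median 6.51) at basal and from 7.17 to 7.52 (median 7.42) after learning, a rise of 0.86 (SE 0.08, adjusted p = 1.2e-09). Grp, gastrin-releasing peptide, rose by 0.82 (SE 0.07, adjusted p = 3.7e-11) and Tac1, the precursor of substance P, by 0.85 (SE 0.12, adjusted p = 4.6e-07), all 3 with no overlap. Pcsk1n, an inhibitor of a prohormone convertase, fell by 0.48 (adjusted p = 3.5e-11). Among 26 receptors for monoamines and acetylcholine 5 were higher and 4 lower, near the share of all genes, with Htr2a up by 0.50 (adjusted p = 3.9e-07) and the muscarinic receptor Chrm1, which fell by 0.63 (adjusted p = 4e-14).

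In cholesterol synthesis 7 of 20 were higher and 7 lower: Srebf2, the regulator of the pathway, fell by 0.62 (adjusted p = 2.4e-15), while its target Hmgcs1 rose by 0.26 (adjusted p = 5.6e-06). In glycolysis and the citric acid cycle 15 of 32 were higher and 9 lower, with Mdh1 up by 0.45 (adjusted p = 2.7e-13) and Pkm, which fell by 0.40 (adjusted p = 1.5e-11). In TGF-beta and BMP signalling 13 of 50 were higher and 16 lower, including Id2, a BMP-induced inhibitor of differentiation (0.48, adjusted p = 2.4e-09), and Smad7, an inhibitory Smad (fell by 0.53, adjusted p = 1e-07). Genes of cell division and new neurons gave 4 higher (17.4%) and 5 lower (21.7%) of 23, near the shares of all genes.

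**Figure D4:**
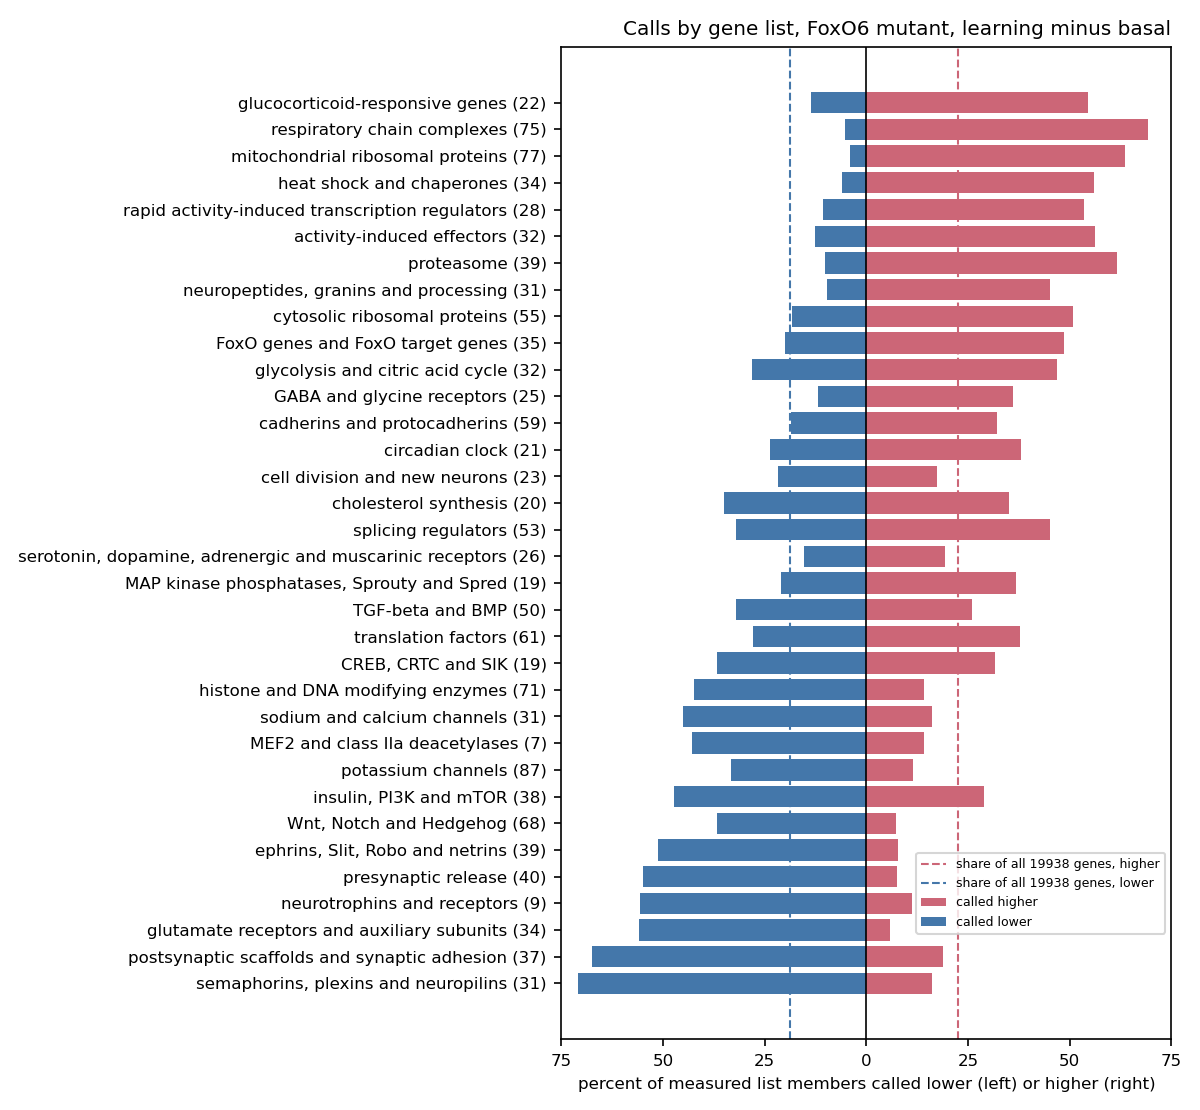
Percent of the measured members of 34 gene lists (number measured in brackets) called lower (bars to the left) or higher (bars to the right) after learning in FoxO6 mutants, ordered by the median difference. Dashed lines give the share of all 19938 genes, 22.6% higher and 18.7% lower; semaphorins, plexins and neuropilins stand at the bottom with 71.0% called lower, and 69.3% of the respiratory chain was called higher.

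Cell type markers were called in both directions in every list except those of choroid plexus and blood. Of 12 dentate granule cell markers 3 were higher and 7 lower: Tdo2 rose by 0.71 (adjusted p = 1.3e-07), while Prox1, the defining factor of granule cells, fell by 0.31 (adjusted p = 0.0002) and Sema5a by 0.48 (adjusted p = 2.6e-07). CA1 markers had 3 of 9 higher and 3 lower, with a median of −0.04. Among them Fibcd1 fell by 0.52 (adjusted p = 6.8e-09), and Mpped1 fell by 0.47 (adjusted p = 1.8e-10) and Lefty1 rose by 0.45 (adjusted p = 7.6e-06). Astrocyte markers had 7 of 12 lower and 3 higher, with a median of −0.17, and oligodendrocyte precursor markers 4 of 9 lower and 1 higher, with a median of −0.12. Oligodendrocyte markers had 5 of 11 higher and 3 lower, with Ermn up by 0.66 (adjusted p = 1.6e-09) and Mag, a myelin glycoprotein, which fell by 0.42 (adjusted p = 1.8e-09). Csf1r, a receptor that microglia need, fell by 0.36 (adjusted p = 2.2e-07), with 4 of 12 microglial markers higher and 2 lower. Meningeal markers had 7 of 11 lower and 2 higher, with Igf2 falling by 0.54 (adjusted p = 2.6e-06). None of 4 blood markers was called.

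Ttr, transthyretin, the main secreted protein of the choroid plexus, had the largest negative difference of all genes, −1.39 (SE 0.47, adjusted p = 0.018). Its arrays overlapped widely, from 11.01 to 11.99 (median 11.57) at basal and from 8.59 to 11.65 (median 10.30) after learning, and without the second learning array the call was lost (adjusted p = 0.064). Of 15 choroid plexus markers 4 were called lower, Ttr, Clic6, Kl and Sostdc1, and none higher, and each of the 4 calls was lost in at least 1 alternative. Averaged over the list, the signal lay at 6.30 to 6.69 at basal and 5.90 to 6.61 after learning. Htr2c, a serotonin receptor that choroid plexus and neurons both hold, fell by 0.54 (adjusted p = 4.9e-07) with no overlap. How much choroid plexus came with each dissected hippocampus was not tested.

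The WT mice, which share no array with the mutants, set this response in context. Of the 8231 genes called in the mutant, 8176 had the same sign in WT, where 8636 genes were called (43.3%). Genes called in both and in the same direction were 6910, or 84.0% of the mutant and 80.01% of the WT calls, and 3 were called in opposite directions. The interaction, which is the mutant difference minus the WT difference, was called for 0 of 19938 genes (0.0%) by limma. At an unadjusted p under 0.05 there were 510 genes, fewer than the 996.9 expected if no gene differed. Mutant and WT differences were 1.73 and 1.60 for Fos, 1.00 and 0.87 for Arc, 0.51 and 0.64 for Bdnf, 0.86 and 0.92 for Tsc22d3, and −0.82 and −0.83 for Syn1. Their unadjusted interaction p-values were 0.40, 0.34, 0.17, 0.47 and 0.89, and a p that misses the threshold does not show that the genotypes respond alike.

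**Figure D5:**
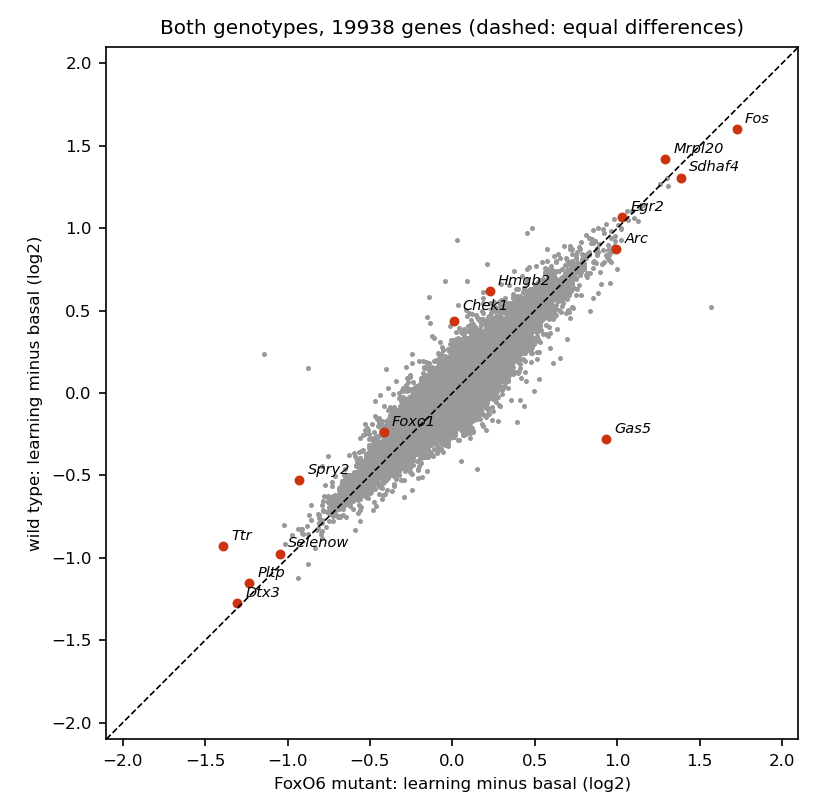
Difference between learning and basal arrays (log2) in FoxO6 mutants (horizontal axis) and wild-type mice (vertical axis) for 19938 genes, 1 point a gene, with named genes in red and equal differences on the dashed line. Fos lies at 1.73 and 1.60, Pltp at −1.23 and −1.15, and Gas5 stands off the line at 0.93 and −0.28 by its brightest probe set (the 3 others gave −0.08, 0.32 and 0.48 in the mutant); the interaction was called for 0 genes.

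Some of the genes with the smallest interaction p-values are given as values, since none passed after adjustment (adjusted p = 0.999994 for each). Spry2 fell by 0.93 in the mutant and by 0.53 in WT (unadjusted p = 5e-05). Chek1, a checkpoint kinase, had a difference of 0.01 in mutants against 0.44 in WT (unadjusted p = 0.00022), and Hmgb2, a chromatin protein of dividing cells, at 0.23 and 0.62 (unadjusted p = 0.00049). The 3 other probe sets of Hmgb2 gave larger mutant differences, 0.33, 0.35 and 0.43. In the opposite direction, Atp6v1c2, a proton pump subunit, stood at 0.43 and −0.08 (unadjusted p = 0.0004) and Gas5, a noncoding RNA that hosts snoRNAs and can bind the glucocorticoid receptor, at 0.93 and −0.28 (unadjusted p = 0.0023). Gas5 varied among basal mutants, from 8.30 to 10.04, against 9.89 to 10.47 in learning mutants. These values are from its brightest probe set: the 3 others stood at −0.08, 0.32 and 0.48 in the mutant, none of which passed, and the mean of its probe sets gave 0.41.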

How the data were processed

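Hippocampal RNA was measured on 24 arrays in 4 groups of 6. The authors deposited log2 values made with RMA, per the submitters' processing notes; RMA subtracts background, gives all arrays the same quantiles and merges the probes of each transcript cluster into 1 value, which can hide a shift common to all genes. Neither the RMA version nor the chip definition is stated in the sources used here. Of 35511 probe sets, 21789 have 1 gene symbol, and the one with the highest mean was used for each of 19938 genes, with no filter on dim genes. Array medians lay between 6.16 and 6.30.

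All 24 arrays were fitted with limma 3.58.1 in R 4.3.3 (a mean for each group, eBayes with a mean-variance trend, 29.0 degrees of freedom), with Benjamini-Hochberg adjustment of p over the 19938 genes. Every adjusted p and SE of a gene comes from this fit, except where an alternative is named. The adjusted p of a further probe set comes from the same model fitted to all 35511 probe sets, with adjustment over these. Its code was also run on simulated data with independent noise and far fewer changed genes than were called here. That run checks the code and not the calls. Precision is limited by the number of arrays. The members, the 49 gene lists and the tests were chosen with earlier results of these data known, so a list's count is a description.

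Named genes were, in each direction, the 15 called genes with the largest difference, the 5 with the smallest p, up to 4 called members of each list (2 by p where none was called) and the 5 with the smallest interaction p, and the FoxO genes; clone names, pseudogenes, small RNAs and olfactory and vomeronasal receptors were skipped. The text prints a part of these. Fosb, Egr4, Npas4, Jun, Junb, Nr4a3, Dusp1, Dusp10, Dusp16, Spry3, Spred1, Fkbp5, Per1, Nr3c1 and Gadd45b were named outside the rule. Promoters and gene positions are from RefSeq, GRCm38.p6, which placed 19855 of the genes. The alternatives covered normalization, weights, filters, probe choice, thresholds, a replicate block and leaving out each mutant array.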

Additional observations from a re-analysis of the deposited data

Results flagged for a closer look

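In the 2 mutant groups, 24 of 372 sets of 6 values for the reported genes (6.45%) had 1 array set apart from the rest, by a gap to the nearest array that took more of the group's range than Dixon's 95% value for 6 samples. Chance gives about 1 in 20. Replicates are numbered as in the labels, and the share of the range is given for each gene. Basal replicate 1 was low for Tmbim6 (0.708) and high for Nr4a3 (0.795) and Spred1 (0.744). Basal replicate 2 was high for Pkm (0.65) and Dtx3 (0.664). Basal replicate 5 was low for Fosb (0.626). Basal replicate 6 was low for Sgk1 (0.636), Fkbp4 (0.694) and Psmd14 (0.68) and high for Foxo6 (0.681). Learning replicate 1 was low for Nr3c1 (0.67), Dnajb4 (0.772), Sdhc (0.719), Elavl2 (0.636) and Ermn (0.791). Learning replicate 2 was low for Csf1r (0.627). Learning replicate 3 was low for Foxo1 (0.702), Sorcs3 (0.675), Gsk3a (0.689) and Tdo2 (0.765). Learning replicate 5 was high for Hsp90aa1 (0.665) and Lsm7 (0.772). Learning replicate 6 was high for Rps21 (0.643) and Kl (0.712). Dnajb4 and Ermn, called higher, were read at 9.99 and 9.79 in learning replicate 1, still above every basal array. The groups of Foxo1 stayed apart, although learning replicate 3 lay at 8.37 and the next array at 8.58. Among the 13 reported genes not called, Foxo6 was high in basal replicate 6 (6.59, the next at 6.32).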

How the results depend on the processing

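The mutant comparison kept its count within 1.5 times of 8231 in every alternative except one: with a difference of at least 0.5 also required, 1103 genes were called. Without each mutant array in turn the count lay between 7707 and 8244. The wild-type count was 8636 and lay between 6618 (adjusted p under 0.01) and 11901 (every probe set), apart from 1150 genes with at least 0.5 also required. The interaction was called for 0 genes in every setting fitted, with 220 to 996 at an unadjusted p under 0.05. The replicate numbers do not pair the arrays: same-numbered learning and basal mutants deviated together with correlations of −0.12 to 0.26, 2 of 6 above 0.1, and 0 learning arrays went best with their own number. With a replicate block over all 24 arrays, 8261 genes were called in the mutant, 8634 in wild type and 0 in the interaction. Higher calls outnumbered lower ones by 4778 to 3321 with each array centred on its median and by 3968 to 3945 after a second quantile normalization, against 4508 to 3723; the median of all genes was then 0.05 and 0.01.

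Of the 186 genes reported, 173 were called, and 168 of them stayed called with the same sign in every alternative that could be fitted for them. The other 5 kept their sign. Ttr lost its call without learning replicate 2 (adjusted p = 0.064), and its difference ranged from −1.70 to −1.09. Hdac4 lost its call with the mean of its probe sets (0.001), whose signs are opposite. Clic6, Kl and Sostdc1 lost theirs with array weights and without several single arrays, with adjusted p up to 0.13, 0.077 and 0.14. Of 49 lists, 6 had a median whose sign turned in at least 1 alternative, all close to 0: CREB, CRTC and SIK; MAP kinase phosphatases, Sprouty and Spred; TGF-beta and BMP; translation factors; monoamine and muscarinic receptors; and thalamic neuron markers. Foxo6 was lower in mutants by −0.72 at basal and −0.63 after learning with centred arrays, an alternative chosen after seeing the data. Depth is not measured by arrays, and for genes at low signal a difference may be understated.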

Other observations

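The array also reads miRNA genes, through their precursors, and a cluster of them on chromosome 12 (starts from 109571990 to 109743418 in GRCm38.p6) was singled out after its values were seen. Of its 40 measured miRNA genes 11 were called lower after learning in the mutant and 1 higher, with a median difference of −0.15 (−0.28 in wild type). Of 251 miRNA genes elsewhere 24 were called lower and 44 higher, with a median of 0.04. Mir377 fell by 0.94 (adjusted p = 0.00022) and Mir381 by 0.88 (adjusted p = 0.00068). For Mir377 the basal arrays ran from 5.54 to 6.89 (median 5.88) and the learning arrays from 4.69 to 5.79 (median 5.04), with overlap. These genes lie side by side, often share 1 precursor transcript and are dim, so they are not independent of each other.

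Some probe sets without a gene symbol also separated the states, but a smaller share of them was called. With the test run over every probe set, 2415 of 12101 without a symbol were called (19.96%), 1328 of them higher and 1087 lower. Of 21789 with 1 symbol, 8460 were called (38.83%), 4638 higher and 3822 lower.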
